A study of Mus musculus with 4 samples.

Results

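RNA that came down with NONO in untreated mouse primary hepatocytes was set against the RNA of the same lysate. The comparison uses 2 of the series' 4 libraries: the control input and the control NONO immunoprecipitate (IP). Its members are the transcripts with a mean of at least 1 FPKM over the 4 libraries, which left 12168 of the 21163 listed mouse Ensembl transcripts (57.5%). FPKM is the number of reads per kilobase of transcript, scaled to the size of the library, so it corrects for transcript length and for depth. The difference taken for each transcript was log2(control IP FPKM + 1) minus log2(control input FPKM + 1).

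Mouse primary hepatocytes are liver parenchymal cells taken from the animal and held in culture. Control cells had no proline treatment. A second pair of libraries, the proline input and the proline NONO IP, came from proline-treated cells and is given beside the control pair as another measurement of IP over input, not as a replicate. Each group was 1 library, so no test could be run, no p-value is given, and every statement compares libraries rather than conditions. Per the labels' protocols, cells were broken open in polysome lysis buffer, a portion of the cleared supernatant was set aside as input, and antibody-coated Dynabeads captured the protein with its RNA. The sources used here do not give the strain or number of animals, or the dose and duration of proline, and a mock IP was not analysed here. RNA that sticks to beads or antibody and RNA bound to NONO therefore cannot be told apart.

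NONO belongs to a small family of nuclear proteins, with SFPQ and PSPC1, that bind both RNA and DNA. Together with the long noncoding RNA Neat1 these proteins build paraspeckles, nuclear bodies that can hold back certain RNAs from the cytoplasm. NONO also acts outside paraspeckles, in transcription, splicing and DNA repair, so an RNA that comes down with it need not lie in a paraspeckle. Per the series' design text the study used NONO as a stand-in for these bodies.

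The deposited data identify transcripts by Ensembl number only, and the reference tables at hand named 0 of the 21163. Neither Neat1 nor any gene list or hepatocyte marker could be located, so the labelled cell type was not checked against its markers and no sequence is shown. Transcripts are told apart below by length, which was worked out from the deposited digits together with whole read numbers. The smallest length that gave whole reads in all libraries was taken, so a length and its reads can come out too small. A read here is the unit the authors counted, single or paired.

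The control input held 22188003 reads and the control IP 1786928, so the input was 12.4 times deeper. A transcript of 3000 nt at 1 FPKM stood for 66.6 reads in the input and 5.36 reads in the IP. With a count of 0, the share could still reach 1.35e-05% of the input reads or 0.000168% of the IP reads (3 reads of the total). For a 3000-nt transcript those limits are 0.0451 and 0.560 FPKM. The median compared transcript had 606 input reads and 46 IP reads, and 1646 of the 12168 had under 10 reads in the IP, against 387 in the input. Intervals below are 95% exact (Clopper-Pearson) intervals of the FPKM ratio, and like the limits for 0 they cover counting error only. Copies made by PCR and differences between cultures lie outside them.

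With FPKM as deposited, some transcripts were far richer in the NONO IP than in the lysate, and a larger number were moderately poorer. At a threshold of 2-fold, 1633 of the 12168 transcripts (13.4%) lay higher in the control IP, and 1771 (14.6%) lay lower. At 4-fold, the balance was the other way: 476 transcripts (3.91%) were higher and 167 (1.37%) lower. At 8-fold, 155 (1.27%) were higher and 22 (0.181%) lower. With a control input of at least 5 FPKM the balance at 4-fold did not turn. There 143 of 8122 transcripts (1.76%) were 4-fold or more lower. Fewer were that far higher: 46 at a log2 difference of 2 to 3, 27 at 3 to 4 and 15 from 4 up. The median difference was -0.14 on the log2 scale, with 5% of transcripts below -1.45 and 5% above 1.80. The range ran from -4.75 to 9.40, so the distribution reached further upward than downward. The counting interval excluded a ratio of 1 for 1600 of the higher transcripts (13.1% of all compared) and for 1720 of the lower ones (14.1%). It did so for 5614 of the 8122 compared transcripts with a control input of at least 5 FPKM, past 2-fold or not. Excluding 1 therefore does not single out those past 2-fold.

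The split between higher and lower moved with the scaling. The higher ones made up 48.0% of those past 2-fold with FPKM as deposited, 60.7% after the FPKM of each library were scaled to the same total, 59.1% after the differences were centred on their median, and 56.4% with the most-read transcript left out of the totals. Differences in the text are from FPKM as deposited, and an offset of this size bears on transcripts near 2-fold, not on those many times higher.

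**Figure D1:**
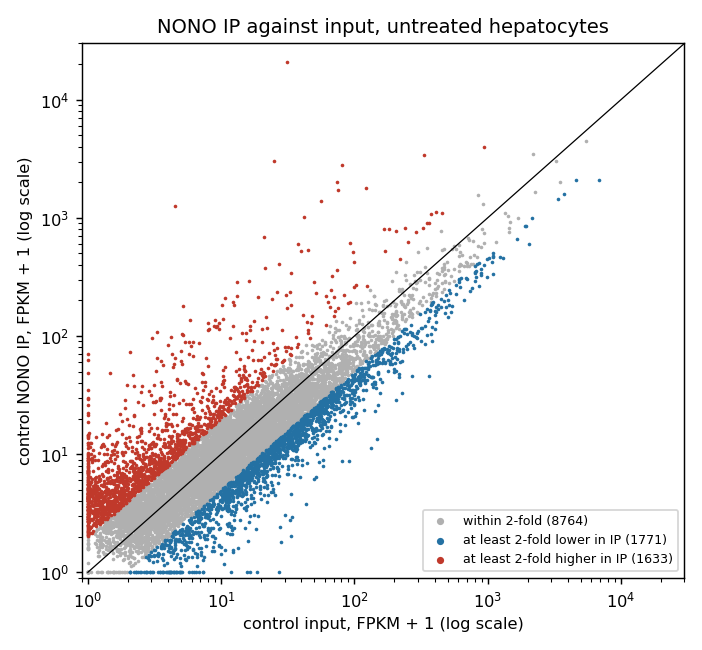
Level of each of the 12168 compared transcripts in the control input (horizontal) and the control NONO IP (vertical), both as FPKM + 1 on log axes; each point is a transcript and the line marks equal levels. The 1633 transcripts at least 2-fold higher lie mostly at low input levels with a few far above the line, and the 1771 at least 2-fold lower form a band just under it at middle and high input levels.

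The gain of the IP was concentrated on few transcripts and its loss was spread over many. The share of a library's reads on listed transcripts was larger in the IP than in input for 12301 of the listed transcripts, by 32.6 percentage points in all. A single transcript made up 26.7% of that gain, the first 10 made up 43.5%, and 21 transcripts reached 50%. The matching loss fell on 7438 transcripts, of which the first took 2.25% and the first 10 took 10.5%, and 356 were needed to reach 50%. The most-read transcript held 8.71% of listed reads in the control IP against 1.13% for the most-read one in the input. Over the first 1000 transcripts the libraries came closer, at 57.3% and 54.5%. The 1633 transcripts at least 2-fold higher held 2.99% of all input reads and 26.3% of all IP reads, while the 1771 lower ones held 31.1% and 11.8%.

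**Figure D2:**
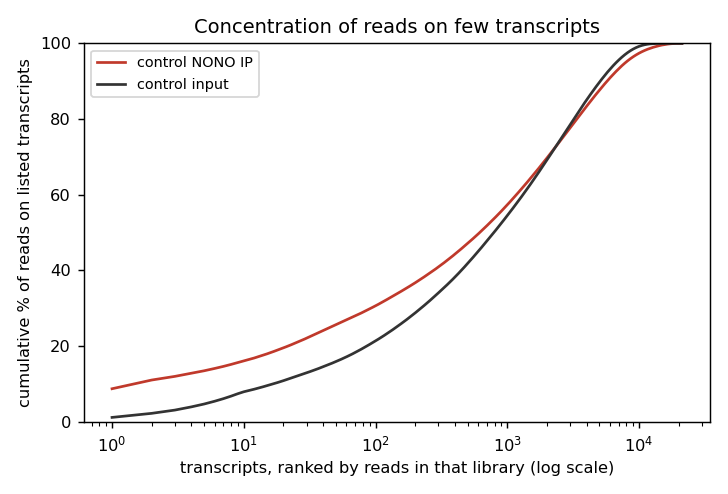
Cumulative percentage of reads on listed transcripts (vertical) against transcripts ranked by reads within each library (horizontal, log scale), for the control input and the control NONO IP. The IP curve starts at 8.71% and the input curve at 1.13%, and they meet past the first 1000 transcripts.

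The transcript with the largest difference, ENSMUST00000038863 of 3894 nt, dominated the precipitate. It stood at 30.2 FPKM in the control input, against 21030 FPKM in its IP, with 74.4 and 44577 FPKM in the proline input and IP. The IP held 697 times the input level in control (670 to 724) and 599 times in proline (584 to 615). Both IPs lay far above both inputs, and in the control IP this transcript alone took 8.19% of all reads. ENSMUST00000179797, of 449 nt, stood at 3.51 FPKM in the control input, against 1254 FPKM in its IP, with 5.56 against 1164 FPKM in proline. Its control ratio was 357 (255 to 515), on 35 input reads and 1006 IP reads. A transcript of 1033 nt followed, at 23.9 against 3038 FPKM in control and 22.2 against 3710 FPKM in proline, which is a control ratio of 127 (116 to 139).

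Of the 10 largest differences upward, 4 belonged to transcripts listed at 0 in the input. A transcript of 1138 nt had no reads in either input, 68.8 FPKM in the control IP (140 reads) and 39.6 FPKM in the proline IP. With the counting error of both libraries, taken as the lower end of the exact interval, it was at least 465-fold higher in control. A transcript of 1563 nt had 134 control IP reads and was at least 444.867-fold higher by the same bound. One of 809 nt had 90 reads and was at least 296.776-fold higher. The fourth, of 543 nt, had 33 reads and was at least 104.986-fold higher. Set against the 3 reads that a count of 0 allows per library, with the IP reads taken without error, the levels of these 4 in the same order were 579, 554.6, 372.5 and 136.6 times that limit. All 4 were also at 0 in the proline input and above 0 in the proline IP, at 16.1 to 50.5 FPKM.

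The remaining 3 of the 10 had some input signal. A transcript of 715 nt stood at 4.16 FPKM in input against 180.0 FPKM in IP in control, which is a ratio of 43.3 (32.8 to 57.8). One of 1712 nt stood at 1.08 and 71.6 FPKM, which is a ratio of 66.3 (47.3 to 94.99). In proline its input was higher, at 7.94 FPKM, with an IP of 89.9 FPKM, so its ratio there was 11.3 (9.22 to 13.9). A transcript of 925 nt stood at 79.2 against 2788 FPKM in control, which is a ratio of 35.2 (33.3 to 37.3), and at 75.7 against 3259 FPKM in proline. All 10 were past 2-fold upward in the proline pair too, by 3.35 to 9.21 on the log2 scale, beside 1080 of all 12168 (8.88%). The 4 without input reads passed the filter only through the IPs, so their direction was built in.

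**Figure D3:**
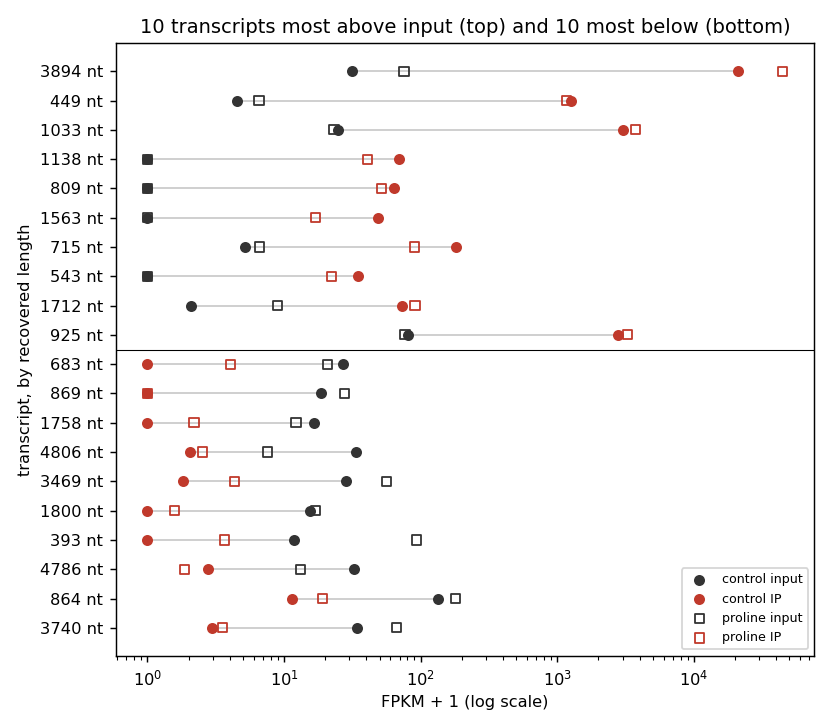
FPKM + 1 (log scale) in the 4 libraries for the 10 transcripts furthest above and the 10 furthest below the input in the control pair, labelled by length; filled circles are control, open squares are proline, black is input and red is IP. For all 10 upper transcripts both IPs lie right of both inputs, and for all 10 lower ones each IP lies left of its own input.

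Long transcripts stood out among those with the most IP reads, a ranking that favours length because longer transcripts yield more reads at the same level. The one of 21388 nt was second by IP reads, at 40.9 FPKM in the control input, against 1014 FPKM in its IP, with 47.7 against 672 FPKM in proline. It took 2.17% of all control IP reads and 0.0875% of the input reads. A transcript of 8228 nt stood at 20.1 against 694 FPKM in control, which is a ratio of 34.5 (33.2 to 35.8). Ratios of 25.2 (24.4 to 26.01) for a transcript of 4412 nt, 16.3 (15.8 to 16.9) for one of 7759 nt and 5.90 (5.76 to 6.06) for one of 17152 nt came with 8283 or more IP reads each. Of the 10 transcripts with the most IP reads, 6 were at least 2-fold higher, and 3 of the other 4 were also among the 10 with the most input reads. The fourth, of 1499 nt, stood at 2204 FPKM in input against 3448 FPKM in IP, which is a ratio of 1.56.

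With FPKM as deposited, the 10 transcripts with the most reads in the lysate were all lower in the control IP, 5 of them by less than 2-fold. The ranking again favours length. With equal FPKM totals the log2 difference of a transcript of 2571 nt went from -0.117 to 0.067. Those of 1810 and 13934 nt went from -1.13 and -1.08 to -0.95 and -0.89, under 2-fold. The others kept their direction and their side of 2-fold. The transcript with the most input reads, of 2034 nt, stood at 5441 FPKM in the control input, against 4471 FPKM in its IP, which is a ratio of 0.822 (0.809 to 0.835), and at 5509.7 against 4455 FPKM in proline. The one of 1545 nt had the highest input level of these, 6793 FPKM, and 2076 FPKM in the IP, which is a ratio of 0.306 (0.298 to 0.314). In proline it stood at 9152 and 1975 FPKM. Of the 10 transcripts with the most input reads, 5 were 2-fold or more below input in control, with input levels 2.115 to 3.27 times the IP level, and none was 2-fold higher. Together they held 7.73% of the input reads and 4.37% of the IP reads. The ratios of these 10 spread from 0.306 to 0.922, far wider than the counting interval of any one of them.

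The 10 largest differences downward rested on few IP reads, from 0 to 16. ENSMUST00000213866, of 683 nt, stood at 25.999 FPKM in the control input (394 reads) and 0 in the control IP, at least 8.56-fold lower by the exact interval, with 19.8 against 3.07 FPKM in proline. ENSMUST00000098657, of 869 nt, stood at 17.6 FPKM (339 reads) and 0, at least 7.36-fold lower, and at 26.7 FPKM and 0 in proline. Both were thus low or missing in both IPs. Transcripts of 1758 and 1800 nt, with 606 and 581 input reads and no IP reads, were at least 13.19-fold and 12.64-fold lower. For a transcript of 393 nt with 95 input reads the depth showed no more than a difference of at least 2.03-fold. Input levels of these 5, in the order given, were 10.6, 9.10, 16.3, 15.6 and 2.55 times the level of 3 IP reads.

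The other 5 had IP reads and so a measured ratio. A transcript of 3469 nt stood at 27.3 FPKM in input against 0.807 FPKM in IP (5 reads), an input 33.9 times the IP (14.5 to 105). One of 4806 nt stood at 32.3 and 1.05 FPKM (9 reads), 30.9 times (16.2 to 67.5). In proline its input was lower, at 6.58 FPKM, and the input was 4.32 times the IP. Transcripts of 4786, 3740 and 864 nt had inputs 18.0, 17.0 and 12.7 times the IP. All 10 were past 2-fold downward in the proline pair as well, by -1.59 to -4.79 on the log2 scale, beside 2373 of all 12168 (19.5%).

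A wider set of falls, which includes those above, still rested mostly on few IP reads, and only some of its members had many. With a control input of at least 5 FPKM, 143 of 8122 transcripts (1.76%) were 4-fold or more below their input, with a median of 19.8 FPKM in input against 2.61 FPKM in IP, on a median of 9 IP reads. In the proline pair 119 of these 143 (83.2%) were at least 2-fold lower, beside 1785 of all 8122 (22%). The most-read of the 143, picked after its values were seen, was a transcript of 4129 nt at 384 FPKM in the control input, against 90.0 FPKM in its IP (664 reads), and at 343 against 68.0 FPKM in proline. A transcript of 3842 nt and one of 3995 nt were also picked after their values were seen. The first stood at 361 against 45.0 FPKM in control (309 IP reads) and at 168 against 48.2 FPKM in proline. The other stood at 146 against 12.5 FPKM in control (89 IP reads) and at 65.6 against 12.3 FPKM in proline. For the transcripts of 3842 and 3995 nt the IP levels were alike in control and proline while the control input was the higher one.

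The difference between IP and input went down as the level in the lysate went up. The median log2 difference was 1.32 for the 1133 transcripts under 1 FPKM in the control input, 0.27 at 1 to 5 FPKM, -0.18 at 5 to 20, -0.60 at 20 to 100 and -0.88 for the 616 at 100 FPKM or more. Of the 1133 lowest, 724 were at least 2-fold higher and 0 lower. The 0 was fixed in advance: with 1 added to each FPKM, an input under 1 FPKM keeps the difference above -1. The filter also admits such transcripts mainly through their level in the other libraries. Of the 616 highest, 19 were at least 2-fold higher (3.08%) and 271 lower (44.0%). Because the control input is also the denominator, the same classes were formed from the proline input, which is not part of the difference. The medians were then 1.37, 0.22, -0.19, -0.53 and -0.75, the same order with a slightly narrower span. The lowest class was again admitted mainly through the IPs, so its median was largely built in. Its median levels were 0.412 and 0.353 FPKM in the control and proline inputs, against 2.74 and 2.18 FPKM in their IPs. From 5 FPKM of input up the filter is passed whatever the IP holds, and there the medians went down in both classings. Across the compared transcripts the level at the 90th percentile was 51.3 times that at the 10th in the control input and 21.7 times in the control IP, so this span was narrower in the precipitate, while its top transcripts held more of the reads, as given above. The filter admits some transcripts of low input through their IP level, which widens the range in the input. Set against the proline input in place of the control input, a check added after the data were seen, the control IP gave 1394 transcripts (11.5%) past 2-fold upward and 1977 (16.2%) downward. Depth moved with this comparison, since the IP libraries had the fewest reads, and its part in the result was not tested.

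**Figure D4:**
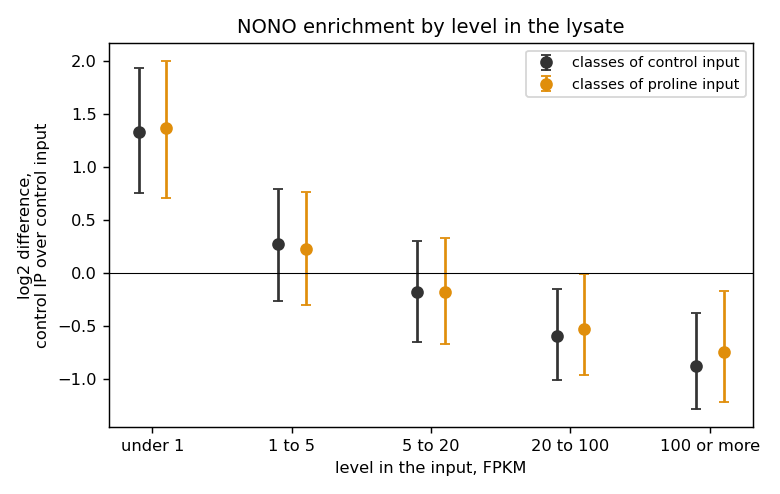
Median log2 difference of control IP over control input (points) with the quartiles of the transcripts (bars), in 5 classes of level in the control input (black) or in the proline input (orange). The medians go from 1.32 to -0.88 over the control classes and from 1.37 to -0.75 over the proline classes.

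Transcripts without input reads were a group of their own. In the control input 189 compared transcripts had no reads but some IP reads, and 178 of them were at least 2-fold higher, on a median of 6 IP reads. In both inputs together 164 had none, and 146 of these 164 (89.0%) were past 2-fold upward in the proline pair. The 164 passed the filter only through the IPs, so a difference upward was built in for them and their count supports nothing. Only 55 of the 1771 lower transcripts (3.11%) had no control IP reads. The 89 compared transcripts without control IP reads had a median length of 817 nt, against 2796 nt over all compared, and short transcripts yield the fewest reads at a given level.

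At a control input of 5 FPKM or more the filter is passed whatever the IP holds, and 8122 transcripts met this. Past 2-fold, 375 of these (4.62%) were higher and 1597 (19.7%) lower in control. The proline pair gave 248 (3.05%) and 1785 (22%) for these transcripts. Among the 8122, the share of lower transcripts went down from each length class to the next longer one. At least 2-fold lower were 29.0% of the 700 transcripts under 1000 nt, 23.9% at 1000 to 2000 nt, 19.2% at 2000 to 4000 nt, 14.8% at 4000 to 8000 nt and 11.1% of the 359 of at least 8000 nt. The median differences in the same order were -0.57, -0.46, -0.39, -0.31 and -0.20. Shares of transcripts at least 2-fold higher had no such order, at 7.14%, 5.43%, 3.70%, 4.04% and 6.41%. Level moved with length here: the median control input was 29.8 FPKM in the shortest class and 14.8 FPKM in the longest. Read numbers did too, with a median of 29 control IP reads in the shortest class and 232 in the longest. The part of either in the result was not tested. At any input level, 39 compared transcripts had at least 15000 nt, a limit set after the values were seen. Of these, 10 were 2-fold higher and 1 lower (25.6% and 2.56%), beside 13.4% and 14.6% of all compared. In the class of 8000 nt or more, at any input level, 12.9% were higher and 8.29% lower. The 39 took 2.29% of the input reads and 4.87% of the IP reads, of which the transcript of 21388 nt alone made 2.17%.

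The share of differences that recurred in the proline pair was larger the larger the control difference was. Among the 8122 transcripts, 21.7% of the 217 with a control difference of 1 to 1.5 upward were past 2-fold upward in the proline pair. The share was 47.1% of 70 at 1.5 to 2, 69.6% of 46 at 2 to 3, and 27 of 27 and 15 of 15 at 3 to 4 and above. Downward, the shares at least 2-fold lower in proline were 51.5% of 1120, 72.8% of 334, 81.0% of 121, 17 of 18 and 4 of 4 over the same steps. Beside these shares, the proline pair gave 248 (3.05%) past 2-fold upward and 1785 (22%) downward among all 8122. Over all 12168 transcripts the proline pair gave 1080 (8.88%) past 2-fold upward and 2373 (19.5%) downward, and both IPs lay above both inputs for 2687 (22.1%) and below both for 4770 (39.2%).

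A set of 42 transcripts (0.517% of the 8122), chosen after the values were seen, was 8-fold or more above input in control with a control input of at least 5 FPKM. They held 0.408% of the input reads and 16.0% of the IP reads. In the proline pair all 42 were at least 2-fold higher, by 1.11 to 9.21, beside 248 of the 8122 (3.05%). Besides those already described, a transcript of 9879 nt stood at 9.76 against 207 FPKM in control and 10.8 against 136 FPKM in proline, and one of 6070 nt at 20.4 against 377 FPKM in control and 22.5 against 276 FPKM in proline. In both, the inputs were alike and the control IP was the highest library.

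The shift between the pairs was then listed by length, with a split set after the values were seen. For the 35 of at least 1100 nt the proline difference was below the control difference in 35 of 35, by a median of -0.65 (-1.14 to -0.10), and their proline IP level was a median of 0.668 times the control IP level. For the 6 shorter ones, of 465 to 1033 nt, the proline difference was the larger in 5 of 6, with a median shift of 0.31 and a median IP level 1.19 times that in control. One more of the 42 had no recovered length. Choice on the control difference favours a smaller value in the other pair, and over all 8122 the median shift was -0.07, with 3681 above 0. The share of the most-read transcript also moved between the IPs, from 8.71% to 18.2% of listed reads, which by construction leaves less for all others, and its part in the shift was not tested.

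**Figure D5:**
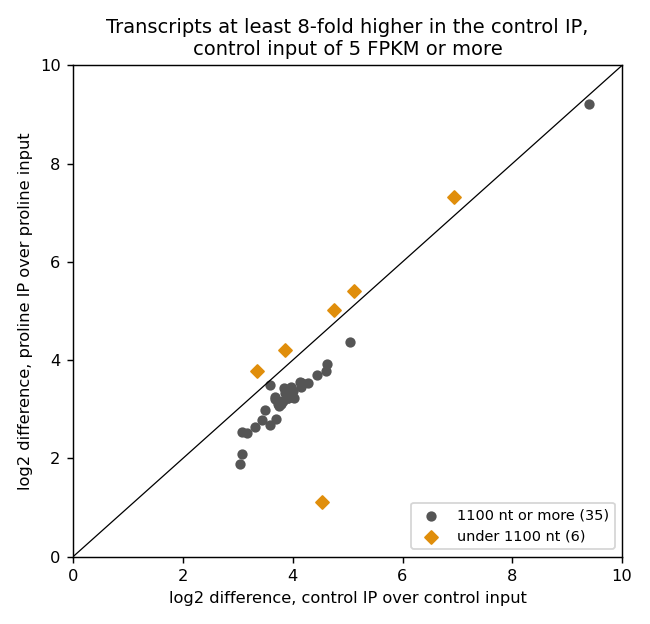
Log2 difference of IP over input in control (horizontal) and in proline (vertical) for the transcripts 8-fold or more above input in control with a control input of at least 5 FPKM, 41 of 42 with a recovered length; the line marks equal differences. All 35 of at least 1100 nt lie under the line, and 5 of the 6 shorter ones lie above it.

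Several abundant short transcripts of nearly one length were high in the precipitate. From 920 nt to under 940 nt, a window set after the values were seen, 17 transcripts had a control input of at least 50 FPKM. Of these 9 were 2-fold or more above input in control, all 9 of 925 to 930 nt, and 8 were not. Among all 1361 transcripts with a control input of at least 50 FPKM, 42 (3.09%) were that far above it, but the window was set on these values. The highest in level, of 925 nt, stood at 933 FPKM in the control input, against 3958 FPKM in its IP, and at 846 against 4521 FPKM in proline. Another of 926 nt stood at 122 against 1786 FPKM in control and at 109 against 2022 FPKM in proline. One of 927 nt stood at 73.6 against 1998 FPKM in control and 65.7 against 2178 FPKM in proline. In these 3 both IPs were above both inputs. The 9 spanned 1.30 to 5.12 on the log2 scale in control and 1.11 to 5.41 in proline, on 1018 to 6542 control IP reads each. Together they made up 0.202% of the input reads and 1.42% of the IP reads.

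The transcript of 928 nt among the 9 behaved differently in its inputs, at 73.8 FPKM in control and 1043 FPKM in proline, while its IPs stood at 1730.1 and 2257 FPKM. Its difference was therefore 4.53 in control and 1.11 in proline. The 8 others of the window had differences of -1.70 to -0.14, and a transcript of 928 nt among them stood at 65.1 and 36.8 FPKM, so length alone did not separate the transcripts. Near-identical transcripts may share reads. The sources used here do not say how reads that fit several transcripts were assigned, so the levels of transcripts of such like length are uncertain one by one. Of the 19 transcripts that were at least 2-fold higher from a control input of at least 100 FPKM, 13 were under 1000 nt, beside 160 of all 616 transcripts at that level. This split was also set after the values were seen. It counts again those of the 9 that reached this level, so it is not a separate result. In the proline pair 12 of the 19 (63.2%) were at least 2-fold higher, beside 19 of the 616 (3.08%).

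The filter's threshold fell among transcripts with little input. Just inside it, a transcript of 1872 nt had a mean of 1.0001 FPKM over the 4 libraries, with 0.626 FPKM in the control input, against 0.598 FPKM in its IP, and one of 3611 nt had 0.699 and 1.86 FPKM. Just outside, a transcript of 7979 nt had 0.0452 and 1.89 FPKM and one of 107355 nt had 0.304 and 2.23 FPKM. The 8995 transcripts outside were not compared.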

How the data were processed

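The authors deposited 1 table of FPKM per library for 21163 mouse Ensembl transcripts. The builds GRCm38 and mm10 are listed, per the submitters' processing notes. The sources used here do not give the aligner, counter, annotation or treatment of reads that fit several transcripts. Tables were joined on the transcript identifier with Python 3.11.15, numpy 2.4.6, pandas 2.3.3 and scipy 1.17.1. Each library's total, and each transcript's length and whole reads, were recovered from the deposited digits for 20229 of the 20230 transcripts with a value; the steps were tested on simulated data. Transcripts with a mean of at least 1 FPKM over the 4 libraries were compared on log2(FPKM + 1), which understates changes of low transcripts. A difference of at least 1 (2-fold) was counted. With 1 library a group no test was run. Transcripts named were the 10 largest differences each way and the 10 with the most control IP or control input reads; others are said to be chosen after their values were seen. The members and lists were chosen with earlier results of these data known. In all, 13 alternatives, and 1 more added after seeing the data, were tried. Gene lists and markers could not be measured, since 0 transcripts could be named.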

Additional observations from a re-analysis of the deposited data

Results flagged for a closer look

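The 5 transcripts below, from the sets described above, were at least 2-fold different in the control pair and had the opposite sign in the proline pair. They are not all such transcripts. For those of 836 and 1215 nt the proline difference was only 0.041 and 0.056. In all but that of 806 nt it rested on few proline IP reads, so its sign there is uncertain. Of the 1633 higher in control, 48 (2.94%) were at least 2-fold lower in proline, beside 2373 of all 12168 (19.5%). Of the 1771 lower ones, 5 (0.282%) were at least 2-fold higher in proline, beside 1080 of all (8.88%). Each pair is 1 library a side and the difference between the pairs was not tested. A transcript of 806 nt had a log2 difference of 1.63 in control (169 FPKM in the input, 524 FPKM in the IP) and -0.40 in proline (1569 and 1193 FPKM). Its input level differed more between control and proline than its IP level. A transcript of 1215 nt had -3.37 in control (90.0 and 7.83 FPKM, on 17 IP reads) and 0.056 in proline (1.62 and 1.72 FPKM, on 2 IP reads), so it was nearly gone from the proline input. One of 1150 nt had -2.17 in control (16.7 and 2.92 FPKM, on 6 IP reads) and 1.002 in proline (3.59 and 8.20 FPKM, on 9 IP reads). One of 836 nt had -2.65 in control (17.9 and 2.01 FPKM, on 3 IP reads) and 0.041 in proline (14.6 and 15.0 FPKM, on 12 IP reads). One of 683 nt, not the one named in the report, had -2.77 in control (5.81 and 0 FPKM) and 0.45 in proline (4.22 and 6.13 FPKM, on 4 IP reads).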

How the results depend on the processing

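The 30 named transcripts at least 2-fold different kept their sign in 350 of 350 values under the alternatives and stayed at least 2-fold in 344. This was largely built in: a changed filter leaves each value as it was, and most were named for their large differences. Of the named transcripts under 2-fold, that of 2571 nt went from -0.117 to 0.067 with equal FPKM totals. It also changed sign with centred differences, at 0.021, and without the most-read transcript, at 0.0058. That of 18100 nt went from -0.92 to 0.25 over the proline input, and the others kept their sign. The counts of 1633 higher and 1771 lower became 565 and 940 with a pseudocount of 5, 2747 and 3615 at 1.5-fold, and 476 and 167 at 4-fold. Higher transcripts numbered 727 with a mean of at least 5 FPKM, 3507 with no filter, 909 with a control input of at least 1 FPKM and 1027 with a proline input of at least 1 FPKM. In that order the higher ones made up 32.6%, 66.1%, 33.5% and 36.6% of those called, and the median log2 difference -0.30, 0.20, -0.23 and -0.21. Their share was 37.5% with the pseudocount of 5, 43.2% at 1.5-fold, 74.0% at 4-fold, 60.7% with equal FPKM totals, 59.1% with centred differences, 56.4% without the most-read transcript, 40.7% with at least 20 reads expected and found, and 41.4% over the proline input, an alternative added after seeing the data. The median was -0.088 with the pseudocount of 5, 0.019 with equal totals, 0 by construction when centred, -0.032 without the most-read transcript and -0.21 with at least 20 reads. The median at 1 to 5 FPKM of input exceeded that at 100 FPKM or more by 1.14, and by 0.98 with the pseudocount of 5, 1.77 with a mean of at least 5 FPKM, 1.28 with at least 20 reads and 0.70 over the proline input. Filters on the input or on reads remove transcripts that the IP admitted; the cause of the other shifts was not tested. In the control IP 1646 compared transcripts had under 10 reads, which limits how far a fall can be measured. No paired analysis was possible because each group holds 1 library.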
